A study of Mus musculus with 13 samples.

Results

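The transcripts described here are those of 7 genes for structural proteins of the inner root sheath of the hair follicle and of 3 deiminase genes, out of 15213 genes listed in the RNA-sequencing table of mammary tumors that overexpress TSG101. The 10 genes are trichohyalin (Tchh), the inner root sheath keratins Krt25, Krt27, Krt28, Krt71, Krt72 and Krt73, and the peptidylarginine deiminases Padi1, Padi3 and Padi4. The genes were picked by symbol, and all 10 are listed. They were chosen because their measured levels differed between the tumors and normal glands and varied widely among the tumors, so that both of these properties are given below as descriptions, without a test. The set holds no keratin of the hair shaft itself, and the hair shaft keratins are set beside it as a separate list.

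RNA was sequenced from 10 mammary tumors of 6 females of the genotype MtTA Teto-TSG101wt and from the mammary glands of 3 wild-type FVB females. In the tumor-bearing line, the MMTV promoter drives the tetracycline transactivator tTA in the mammary epithelium in a mosaic fashion, and tTA switches on a TetO transgene that encodes HA-tagged TSG101 and luciferase in the absence of doxycycline. The transgene came from a selected founder line on the FVB background, and the glands carry neither transgene. Of the 6 females, 3 gave 1 tumor, 2 gave 2 tumors (tumors 2 and 3, and tumors 5 and 6) and 1 gave 3 tumors (tumors 8, 9 and 10), and the ages of the sequenced animals are not given in the sources used here. Levels are given as normalized cpm, which are read counts relative to a scaled library size. Tumor libraries held 6176269 to 16835397 reads assigned to listed genes, and gland libraries 11672487 to 23889042. The ribosomal RNA precursor Rn45s took 0.456% to 27.4% of these reads in the tumors, with the highest share in tumor 9, and 0.296% to 4.35% in the glands. Tsg101 itself differed between tumors and glands by 0.30 ± 0.20 (SE) on the log2 scale, with an adjusted p of 0.279 (limma, all listed genes).

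The inner root sheath is a stiff sleeve around the growing hair that molds the shaft and is shed before the hair leaves the skin. Its cells fill with keratin filaments, each built from a type I keratin (Krt25, Krt27 and Krt28 among them) paired with a type II keratin (Krt71, Krt72 and Krt73 among them). Trichohyalin, an arginine-rich protein, binds these filaments, deiminases convert its arginines to citrulline, and transglutaminases then join the proteins into a hardened matrix. None of these genes is a marker of the mammary epithelium.

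Trichohyalin shows the substrate of this chemistry. Its coding sequence (GENCODE transcript ENSMUST00000064257) had 1599 codons, of which 410, or 25.6%, encoded arginine, while arginine codons made up 4.71% to 7.05% of the 6 keratins. The 40 codons with the most arginine, codons 1241 to 1280, lie in exon 2 of that transcript (GRCm38, plus strand, chr3:93446975-93447094) and held 16 arginine codons, which are in capitals:

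Tchh codons 1241 to 1280: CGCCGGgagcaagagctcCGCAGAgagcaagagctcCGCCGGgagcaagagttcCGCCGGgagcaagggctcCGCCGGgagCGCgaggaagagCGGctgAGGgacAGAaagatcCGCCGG

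The 6 keratin genes lie in the type I cluster on chromosome 11 and the type II cluster on chromosome 15. RefSeq promoter sequences of build GRCm38.p6 were matched for all 10 genes. The stretches from 60 bases before to 10 bases after the annotated start of transcription are shown for the keratins, all on the minus strand, with TATAAA in capitals:

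Krt25 (chr11:99322942-99323011): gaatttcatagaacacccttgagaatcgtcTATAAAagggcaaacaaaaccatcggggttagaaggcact
Krt27 (chr11:99351109-99351178): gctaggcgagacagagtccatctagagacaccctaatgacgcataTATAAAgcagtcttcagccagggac
Krt28 (chr11:99374894-99374963): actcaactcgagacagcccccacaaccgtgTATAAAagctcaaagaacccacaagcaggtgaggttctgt
Krt71 (chr15:101743088-101743157): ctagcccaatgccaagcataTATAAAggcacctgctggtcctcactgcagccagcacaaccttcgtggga
Krt72 (chr15:101786511-101786580): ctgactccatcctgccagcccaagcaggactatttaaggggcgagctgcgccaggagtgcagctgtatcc
Krt73 (chr15:101802351-101802420): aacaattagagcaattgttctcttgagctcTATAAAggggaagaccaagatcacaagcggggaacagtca

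The motif began 30 bases before the start in Krt25, Krt28 and Krt73, 40 bases before it in Krt71 and 15 bases before it in Krt27. In Krt72 the letters were found on the opposite strand alone, 203 bases before the start. In windows from 250 bases before to 50 bases after the start, with both strands searched, TATAAA was present in 7 of the 10 genes (the keratins and Padi4) and in 13.6% of 32851 promoters. AGATAA, a sequence that GATA factors can bind, was present in 5 genes (Tchh, Krt25, Krt27, Krt71 and Krt73) and in 11.2% of all promoters. CTTTGA, which LEF/TCF factors can bind, was present in 2 genes (Tchh and Krt28; 16.0% of all promoters), and TGANTCA, the AP-1 motif, in Padi4 alone (7.81% of all promoters). These matches describe the sequences and do not show that a factor was bound.

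Some of the keratins are alike enough to share reads. The coding sequences of Krt25 and Krt27 were 82.5% identical and shared an unbroken run of 105 bases, longer than the 75-base reads, which is shown because reads that fall inside it fit both genes:

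Krt25 and Krt27, shared run: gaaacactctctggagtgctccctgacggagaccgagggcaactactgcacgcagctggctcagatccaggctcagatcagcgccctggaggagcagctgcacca

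This run spans exons 5 and 6 of both genes. Krt25 and Krt28 shared 87 bases in exon 6, and Krt71 and Krt73 shared 76 bases across exons 1 and 2. The longest runs of the other pairs within each family were 63 bases or less. The values of Krt25 and Krt27, of Krt25 and Krt28, and to a lesser degree of Krt71 and Krt73, may therefore hold some reads of each other.

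Trichohyalin was the most abundant of the 10 transcripts, also per kilobase of exon. Tchh (chr3:93442330-93449077) was at 94.0 normalized cpm in the lowest tumor, 268 at the median and 1912 in the highest, and at 6.72, 13.1 and 8.66 in the 3 glands. All tumors lay above all glands, and the level was highest in tumor 7, followed by tumor 9 at 1454. The tumor mean of 513 ± 631 (SD, n = 10) was 54.1-fold the gland mean of 9.48 ± 3.25 (SD, n = 3). Since RNA came from whole tissue, more cells with a transcript and more transcript per cell cannot be told apart, here and for every gene below.

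**Figure D1:**
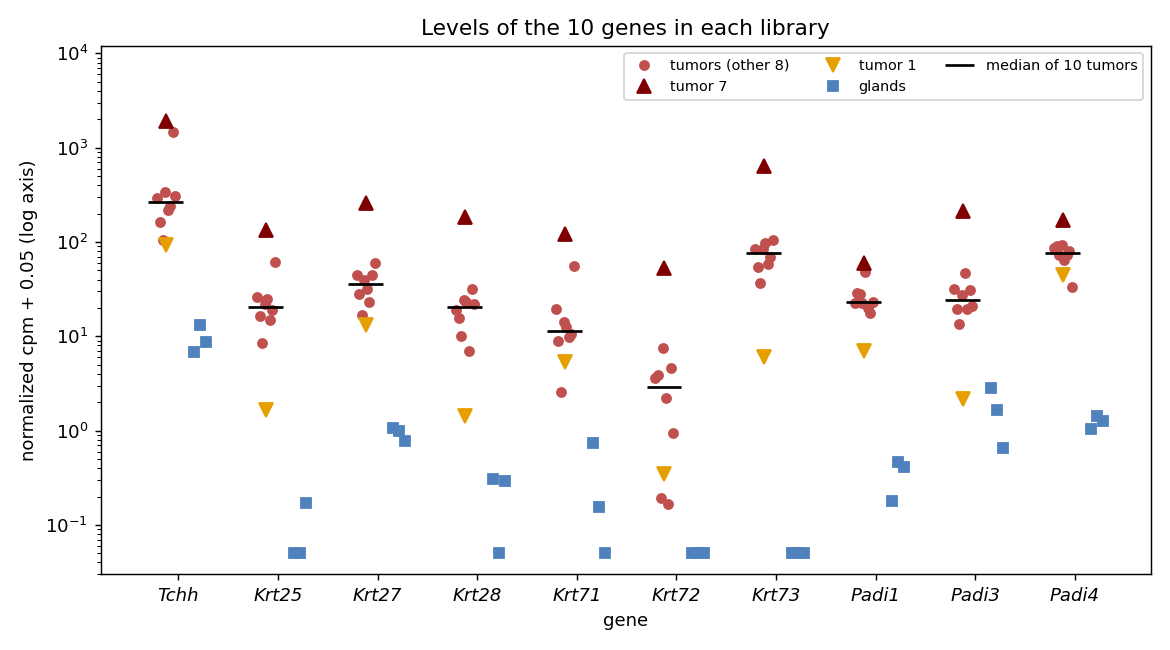
Levels of the 10 genes in 10 tumors and 3 glands, as normalized cpm plus 0.05 on a log axis, with a line at the median of the tumors. Tumor 7 is the highest tumor for every gene, tumor 1 is the lowest for 7 of the 10, and Padi3 is the single gene in which a tumor lies among the glands.

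The type I keratins, the acidic partners, were almost silent in the glands. Krt25 (chr11:99315516-99322951) was at 1.62, 20.4 and 133 normalized cpm in the lowest, median and highest tumor, and gave a single read in the 3 glands together (0, 0 and 0.122 normalized cpm). Its tumor mean was 1667-fold the level pooled over the 3 glands. The 95% counting interval was 299 to 65858, which covers the counting error of the gland reads only. Krt27 (chr11:99345565-99351118) was at 13.1, 35.4 and 257 in the tumors and at 1.03, 0.929 and 0.731 in the glands, a 62.3-fold difference between the means. Of the type I keratins it was the one with the most reads in the glands, 48 over the 3 libraries. Krt28 (chr11:99365007-99374903) was at 1.38, 20.4 and 183 in the tumors and at 0.257, 0 and 0.244 in the glands, a 202-fold difference. In all 3 genes every tumor lay above every gland, and tumor 1 was the lowest tumor and tumor 7 the highest. The tumor mean of Krt25 was 32.7 normalized cpm with tumor 7 and 21.6 without it. Without tumor 7 the difference from the glands was 37.4-fold in Krt27 and 102-fold in Krt28.

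The type II keratins, the basic partners, held both the most and the least abundant of the 6 keratins. Krt73 (chr15:101793304-101802360), known from the cuticle of the inner root sheath, was at 6.0, 76.9 and 643 normalized cpm in the lowest, median and highest tumor and gave no read in the 3 glands. Against a floor of 3 reads per gland library, the upper 95% limit of a count of 0, which covers counting error only, its tumor mean was at least 573-fold higher, and its lowest tumor at least 27.7-fold higher. Without tumor 7 the bound on the mean was 306-fold. Per kilobase it was the most abundant of the 6 keratins, with a tumor mean of 57.1, ahead of Krt27 at 36.0. Krt71 (chr15:101733949-101743097), present throughout the inner root sheath and mutated in mice with wavy coats, was at 2.49, 11.4 and 122 in the tumors and at 0.685, 0.103 and 0 in the glands, a 99.3-fold difference between the means. Its lowest tumor was tumor 4, and the difference was 58.7-fold without tumor 7. Gland 1 gave 16 of its 18 gland reads, so that the gland mean rests largely on that library. Krt72 (chr15:101776172-101786520), also a keratin of the sheath cuticle, was the least abundant, at 0.118, 2.86 and 53.2 in the tumors and without a read in the glands. The lowest value was a single read in tumor 8, and tumors 1 and 4 were at 0.30 and 0.141, near the floor of 3 reads, which was 0.141 to 0.683 normalized cpm in the tumor libraries. Its tumor mean was at least 35.2-fold above the gland floor, and at least 11.8-fold without tumor 7, with which the mean was 7.61 ± 16.2 (SD, n = 10) and without which it was 2.55.

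Tumors high in type I keratins were high in type II keratins as well. Type I keratins (Krt25, Krt27 and Krt28) summed to 10.1 normalized cpm per kilobase in the lowest tumor, 49.2 at the median and 345 in the highest, and type II keratins (Krt71, Krt72 and Krt73) to 5.33, 44.1 and 379. The ratio of type II to type I lay between 0.528 in tumor 1 and 1.17 in tumor 8, with a median of 0.910. Without tumor 7 the highest sums were 83.2 and 74.4, both in tumor 10.

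The deiminases, which turn arginine into citrulline, held the steadiest of the 10 genes, Padi4 and Padi1, whose SD among tumors on the log2 scale was 0.62 and 0.80, and 1 that varied as widely as the keratins, Padi3, with an SD of 1.52. Padi1 (chr4:140812981-140845778), known from epidermis and hair follicle, was at 6.90, 23.0 and 59.9 normalized cpm in the lowest, median and highest tumor and at 0.128, 0.413 and 0.366 in the glands, a 91.8-fold difference between the means. It overlaps a predicted gene, Gm13032, and as no source used here says whether strand was used in counting, reads in the overlap cannot be told apart. Padi3 (chr4:140785369-140810648), which modifies trichohyalin in the inner root sheath and hair medulla, was at 2.10, 24.0 and 216 in the tumors and at 2.78, 1.60 and 0.610 in the glands, a 25.7-fold difference that was 14.1-fold without tumor 7. Tumor 1 lay within the range of the glands, and this was the single overlap between tumors and glands among the 10 genes. Padi4 (chr4:140745508-140774239), better known from granulocytes, where it citrullinates histones, was at 33.5, 77.0 and 171 in the tumors and at 0.985, 1.39 and 1.22 in the glands, a 67.5-fold difference. It had the narrowest range of the 10 genes, with the highest tumor 5.10-fold above the lowest.

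Because Padi4 is also a gene of neutrophils, their markers were read in the same libraries. Of 13 neutrophil genes 10 are listed, and 5 were higher in the tumors at the call used here, as were 10.5% of all listed genes. The call is a limma adjusted p under 0.05 with a difference of more than 2-fold. The summed level of the 10 genes was 1138 to 5323 normalized cpm in the tumors and 322 to 416 in the glands, lowest in tumor 1 and highest in tumor 7. It was carried by Ltf, S100a8 and S100a9, which epithelia also express. In 5 of the 10 all tumors lay above all glands, as in 11.4% of all listed genes. Camp, which encodes a granule peptide, was at 2.08 to 82.8 in the tumors, highest in tumor 9, and at 0 to 1.34 in the glands (adjusted p = 0.0022). Csf3r, the receptor for granulocyte colony-stimulating factor, was at 7.41 to 53.8 and 2.27 to 4.50 (adjusted p = 0.0053). Like Padi4 it was highest in tumor 7 and lowest in tumor 10, which held for none of the other listed neutrophil genes. The 5 that did not pass the call were Cxcr2, Mmp8, Mmp9, Mpo and Retnlg. Mpo, a defining granule gene, was at 0 to 2.05 in the tumors and 0 to 0.244 in the glands, and Retnlg was at 0.283 to 2.73 and 0.0516 to 0.853. The part of neutrophils in the level of Padi4 was not tested.

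On the log2(normalized cpm + 1) scale, the difference between tumors and glands had a median of 4.32 over the 10 genes. It ranged from 1.91 in Krt72 to 6.14 in Krt73, and the median over all listed genes was 0.01. The median of the 10 genes was 4.35 when those without a gland read were taken at the log2 of their tumor mean over the gland floor. That bound adds no 1 to the values, so that this median mixes scales. Of the 10 genes 9 passed the call as higher in the tumors, all but Krt72, where 10.5% of all listed genes did. In 9 of 10 genes, all but Padi3, the 10 tumors lay above the 3 glands, which held for 11.4% of all listed genes. With the filter on low values of the methods, which removes Krt72, 9 of 9 were called, against 10.2% of the genes tested. These counts describe genes that were selected on this contrast.

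The 10 genes varied more among the tumors than most genes did. On the log2 scale, the SD over the 10 tumors had a median of 1.5 over the 10 genes, of 1.55 over the 6 keratins and of 0.80 over the 3 deiminases. Among all listed genes the median SD was 0.38 and the 95th percentile 0.85. Tumor 7 was the highest tumor for 10 of 10 genes. Its lead over the second highest tumor was smallest in Padi1, at 1.25-fold, and largest in Krt72, at 7.18-fold, and it was 6.14-fold in Krt73. Tumor 1 was the lowest for 7 genes and among the 3 lowest for all 10, and tumor 4 was among the 3 lowest for 8. The exceptions at the low end were Krt71, lowest in tumor 4, Krt72, lowest in tumor 8, and Padi4, lowest in tumor 10.

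Tumors of the same mouse were not alike in every case. Between tumors 2 and 3 the higher value was 1.58-fold the lower at the median of the 10 genes, and between tumors 5 and 6 it was 1.35-fold. Of tumors 8, 9 and 10, which also came from 1 mouse, the pairs differed by 1.43-fold (tumors 8 and 9), 2.38-fold (tumors 8 and 10) and 1.96-fold (tumors 9 and 10) at the median. Tumor 9 held the second highest Tchh level of all tumors, 1454 normalized cpm, beside 241 in tumor 8 and 309 in tumor 10. Its inner root sheath keratins did not stand out in the same way. Per kilobase, Tchh was at 259% of the 6 summed keratins in tumor 9, at 105% in tumor 1 and at 33.7% to 71.4% in the other tumors. Tumor 9 was also the library with the largest share of Rn45s reads, and the part of this in the Tchh level was not tested.

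The hair shaft, which the sheath encloses, is built from its own keratins, and these set the tumors apart in another way. Per kilobase, the 13 listed hair shaft keratins summed to 427 normalized cpm in tumor 7, to 37.0 to 65.2 in tumors 2, 3, 5, 6 and 9, and to 2.58 to 8.11 in tumors 1, 4, 8 and 10. The 6 inner root sheath keratins summed to 725 in tumor 7, to 67.1 to 104 in tumors 2, 3, 5, 6 and 9, to 15.4 in tumor 1, 39.2 in tumor 4 and 58.0 in tumor 8, and to 158 in tumor 10. Shaft keratins thus came to 38.5% to 64.6% of sheath keratins in tumors 2, 3, 5, 6, 7 and 9, and to 5.14% to 16.7% in tumors 1, 4, 8 and 10, with no tumor between. Tumor 10 had the second highest level of sheath keratins and the seventh of shaft keratins.

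**Figure D2:**
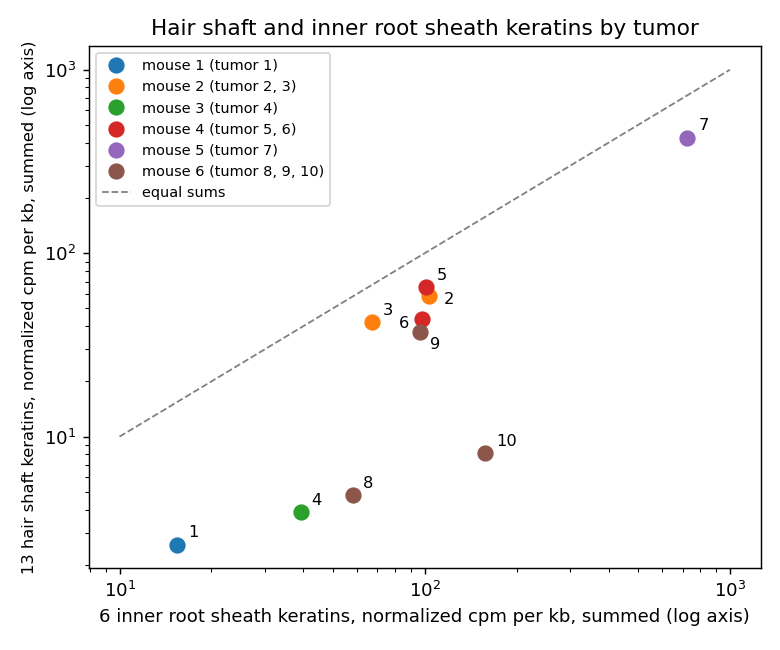
Summed levels of 13 hair shaft keratins against those of 6 inner root sheath keratins in each tumor, in normalized cpm per kilobase of exon on log axes, colored by mouse, with a dashed line where both sums are equal. Tumors 1, 4, 8 and 10 lie far below the line, at 5.14% to 16.7%, and the others at 38.5% to 64.6%.

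Other genes of the hair follicle were read as 8 lists, which together hold 77 listed genes. Of these, 27 were higher in the tumors, 2 were lower and 48 did not pass the call, where 10.5% of all listed genes were higher and 10.1% lower. The median difference was 1.85 on the log2(normalized cpm + 1) scale. It was 3.55 when the genes without a gland read were taken at the log2 of their tumor mean over the gland floor. That bound adds no 1 to the values, so that 3.55 mixes scales and cannot be set against 1.85. With edgeR on the recovered read counts, a test that adds no pseudocount of 1 to each value, 65 were higher and 2 lower. The largest gap between the tools was in the keratins and associated proteins of the hair shaft.

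Of 3 other keratins of the inner root sheath and companion layer 2 are listed, and these rose. Krt26, a type I keratin of the sheath cuticle, was at 1.80, 15.8 and 145 normalized cpm in the lowest, median and highest tumor and Krt75, a keratin of the companion layer that borders the sheath, at 14.2, 56.4 and 249. Neither gave a read in the glands. Krt26 was at least 140-fold (80.9-fold without tumor 7) and Krt75 at least 395-fold above the gland floor, with limma adjusted p values of 0.00079 and 4.59e-06.

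Among 13 listed hair shaft keratins 3 rose and none fell by limma, and 13 rose by edgeR. The 3 were Krt35 (adjusted p = 0.013), Krt32 (0.045) and Krt33a (0.048), each with all tumors above all glands. Krt35, an early keratin of the shaft cortex and cuticle, was at 0.60 normalized cpm in tumor 1, 17.9 at the median and 236 in tumor 7, and gave no read in the glands. All tumors lay above all glands in 11 of the 13, and in 11.4% of all listed genes. Of 27 listed keratin-associated proteins, which embed the shaft keratins, 1 rose by limma, Krtap8-1, and 25 by edgeR. All tumors lay above all glands in 10 of them, and 25 gave no read in any gland. The list holds only genes that are listed, and a gene without gland reads may have been listed only through its tumor reads. Krtap8-1 was at 0.282 in tumor 4 and at 152 in tumor 7 (adjusted p = 0.040). Krtap7-1 ranged from 0.329 to 120 (adjusted p = 0.054), and Krtap3-1 from 0.060 to 45.4 (adjusted p = 0.11), all by limma. The calls of Krt32, Krt33a and Krtap8-1 were lost when the reads of each mouse were summed (adjusted p = 0.099, 0.082 and 0.077) and when any of the 3 glands was left out, with adjusted p values of 0.069 to 0.14, 0.090 to 0.13 and 0.078 to 0.12, and that of Krt35 when gland 1 was (adjusted p = 0.051).

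**Figure D3:**
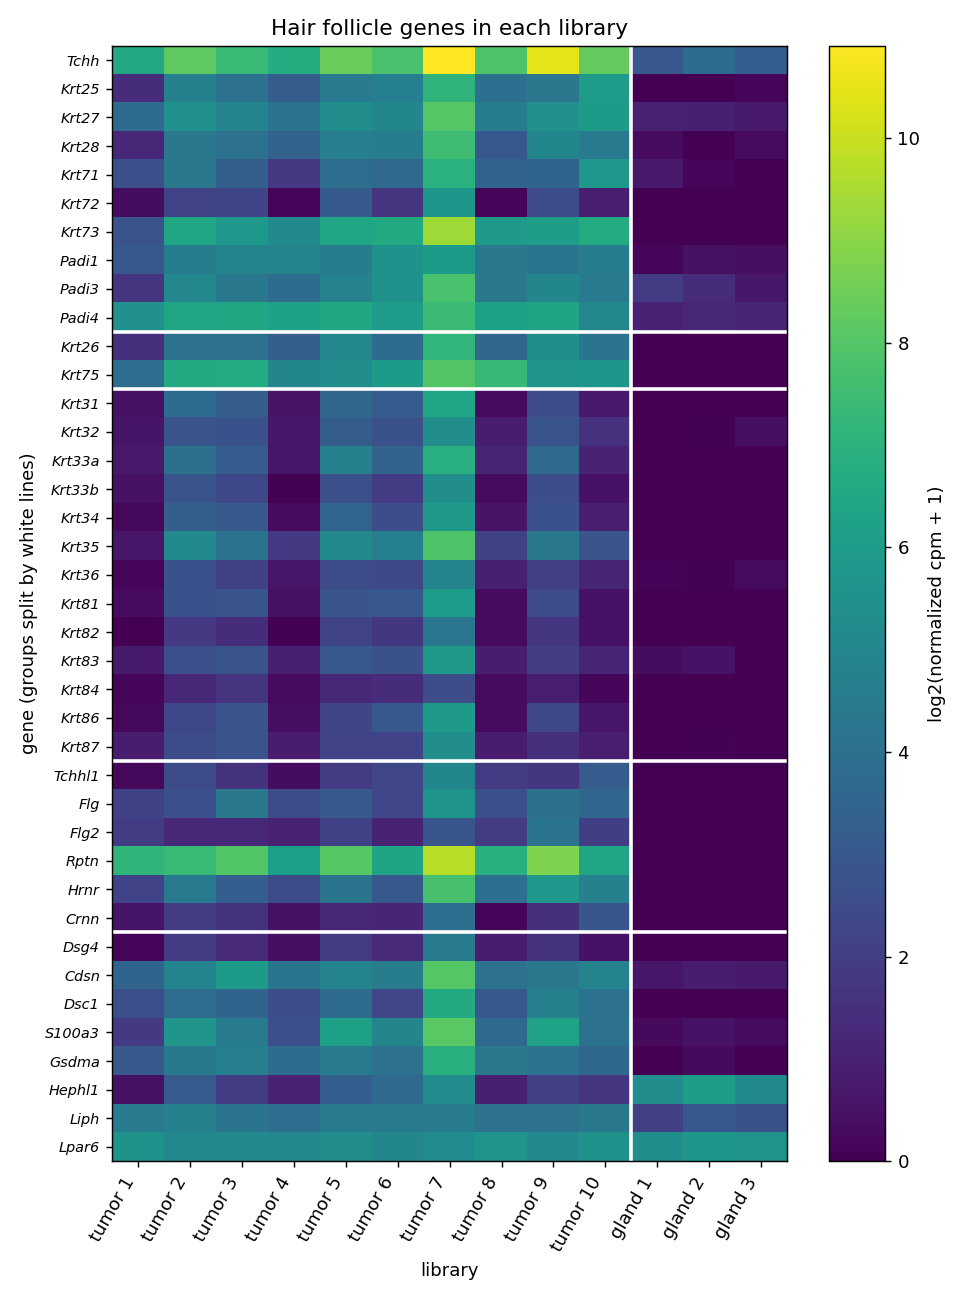
Levels of the 10 genes and of 4 related lists in each library as log2(normalized cpm + 1), split by white lines into the 10 genes, Krt26 and Krt75, 13 hair shaft keratins, 6 S100 fused-type proteins and 8 adhesion and differentiation genes. Tumor 7 is the brightest column, and the shaft keratins are dark in tumors 1, 4, 8 and 10.

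Trichohyalin belongs to the S100 fused-type proteins, large repeat proteins of cornified epithelia whose genes lie side by side. All 6 other listed members were without a read in the 3 glands, and 5 of them rose. Rptn, which encodes repetin, was at 69.3, 155 and 837 normalized cpm in the lowest, median and highest tumor, at least 1138-fold above the gland floor (adjusted p = 4.81e-07), and Hrnr, which encodes hornerin, at 3.54, 16.0 and 211 (adjusted p = 0.0019). Flg, Flg2 and Tchhl1 rose as well, although the call of Tchhl1 was lost with reads summed per mouse (adjusted p = 0.11) and without any of the 3 glands (0.079 to 0.12). Crnn did not pass the call (adjusted p = 0.067), although all of its tumor values lay above those of the glands.

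The enzymes and regulators around these proteins moved less evenly. Padi2, the deiminase next to Padi1, was at 2.64 to 9.06 normalized cpm in the tumors and 3.17 to 10.02 in the glands (adjusted p = 0.56). Of 3 epithelial transglutaminases, Tgm5 rose by 3.09 ± 0.39 (SE) on the log2 scale (adjusted p = 3.22e-05) and Tgm3, which cross-links trichohyalin, by 2.12 ± 0.77 (adjusted p = 0.047), with tumor 1 below all 3 glands. The call of Tgm3 was lost with reads summed per mouse (adjusted p = 0.10), without the mouse of 3 tumors (0.052), with scaling to mammary epithelium markers (0.051) and without any of the 3 glands (0.099 to 0.13). Tgm1 did not pass the call (adjusted p = 0.23). Of 17 transcription factors 9 rose, and on the log2(normalized cpm + 1) scale Foxq1 and Prdm1 had the largest differences, 2.88 ± 0.35 (adjusted p = 2.37e-05) and 2.49 ± 0.35 (adjusted p = 7.34e-05). Without gland 3 the calls of Hoxc13, Dlx3 (adjusted p = 0.093), Msx2 (0.060) and Ovol1 (0.064) were lost and 5 of the 9 stood. The call of Msx2 was also lost without gland 1 or gland 2, that of Ovol1 without gland 1, and that of Dlx3 with reads summed per mouse (0.052). Hoxc13, a regulator of hair keratins, was at 0.120 in tumor 1 and 40.6 in tumor 7 and gave no read in the glands, and its call was also lost with reads summed per mouse (adjusted p = 0.076) and without any of the 3 glands (0.057 to 0.085). Gata3, which is needed for the inner root sheath and is also a factor of the luminal mammary epithelium, was at 67.1 to 119 in the tumors and 77.5 to 214 in the glands (adjusted p = 0.11). Lef1, a Wnt effector of hair shaft precursors, was called lower, with 0.296 to 9.12 in the tumors and 43.3, 0.774 and 15.6 in the glands. This call was lost with reads summed per mouse (adjusted p = 0.10), without the mouse of 3 tumors (0.080), when gland 1 was left out (0.22) and when gland 3 was (0.079).

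Of 8 listed adhesion and differentiation genes of the follicle 5 rose and 1 fell. S100a3, a calcium-binding protein of the hair cuticle and a substrate of Padi3, was at 2.58, 26.1 and 278 normalized cpm in the lowest, median and highest tumor and at 0.214, 0.465 and 0.244 in the glands (adjusted p = 0.0028). Gsdma, an epidermal gasdermin, ranged from 7.26 to 120 in the tumors and was at 0 to 0.207 in the glands (adjusted p = 3.06e-05). Cdsn, Dsc1 and Liph also rose. Hephl1, a ferroxidase needed for normal hair, went the other way, with 0.42 to 37.0 in the tumors and 39.9, 68.8 and 36.3 in the glands (adjusted p = 0.0058). All p values in these paragraphs are adjusted over all listed genes.

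The genome neighbors of the 10 genes were not all alike. Between Krt25 and Krt27 lies Krt26, which rose. The next keratin before Krt25, Krt222, was at 0.224 normalized cpm on average in the tumors and 3.18 in the glands, and the next after Krt28, Krt10, a keratin of the suprabasal epidermis, at 70.5 and 10.96. The type II group is flanked by Krt5, the basal keratin, at 561 and 79.4, and by Krt1, the partner of Krt10, at 21.1 and 0.0835. On chromosome 4, Padi4 and Padi3 lie side by side, and Rcc2, the neighbor of Padi4 on the outer side, was at 173 in the tumors and 207 in the glands. The 2 immediate neighbors of Tchh, Rptn and Tchhl1, are described above.

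**Figure D4:**
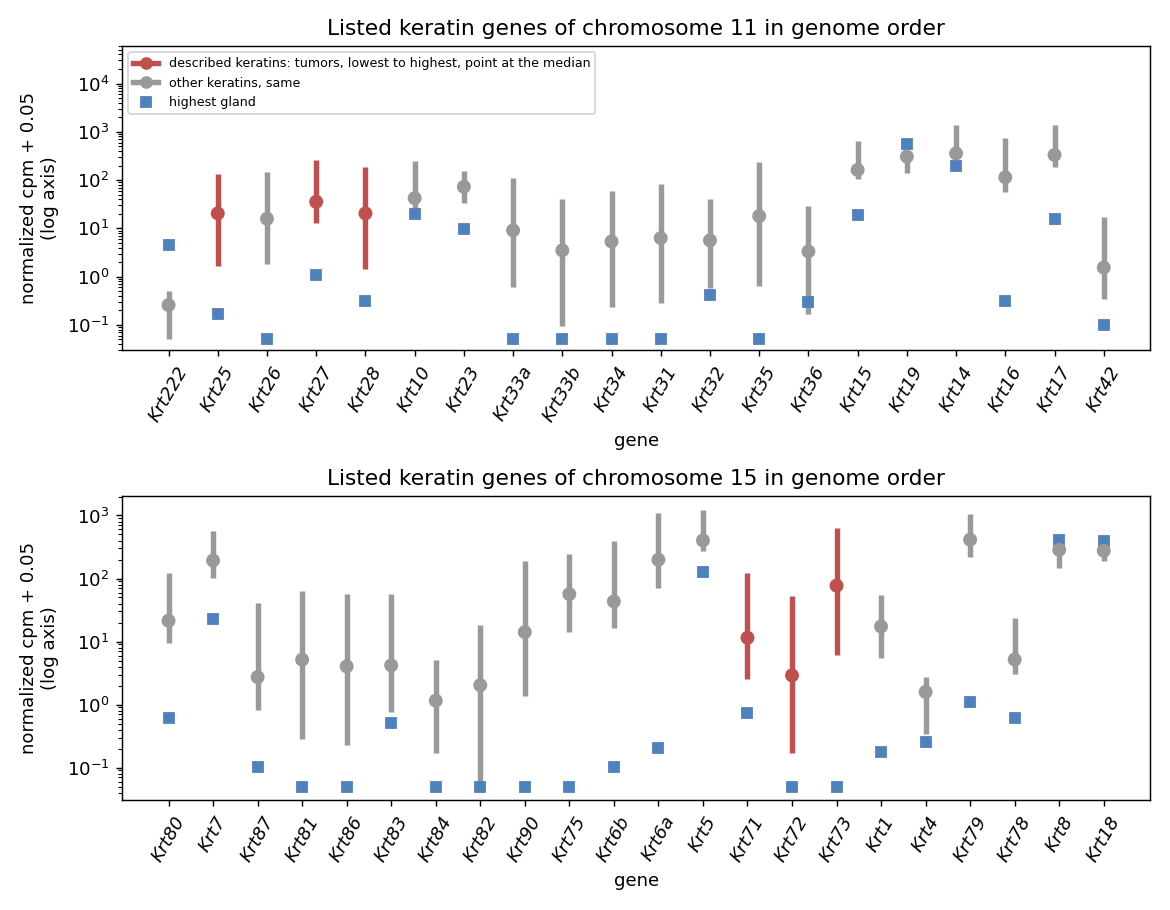
Listed keratins of the chromosome 11 and chromosome 15 clusters in genome order, with bars from the lowest to the highest tumor, points at the tumor median and squares at the highest gland, in normalized cpm plus 0.05 on a log axis. The 6 inner root sheath keratins (red) sit in 2 groups above their gland values. Most other keratins shown also have the median tumor above the highest gland, such as Krt79 (413 and 1.03) and Krt7 of simple epithelium (193 and 23.1). The exceptions are Krt222 and, of simple epithelium, Krt8, Krt18 and Krt19, for which the highest gland lies above the median tumor.

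Of genes outside the set, 14591 with a mean of at least 1 normalized cpm in the tumors were compared with the mean log2 level of Tchh and the 6 keratins over the 10 tumors. The 10 most alike, by Pearson r over 10 tumors from 6 mice, were Tgm6, Prss53, Lyg2, Ascl4, Clca2, Ppif, Crym, Crhr1, Pla2g4e and Krt26, with r from 0.971 in Tgm6 to 0.950 in Krt26. Tgm6, a transglutaminase, was at 0.060 to 23.9 in the tumors and gave no read in the glands, and so did Lyg2 and Crhr1. Ppif, a mitochondrial cyclophilin, was at 30.2 to 119 in the tumors and 26.9 to 33.1 in the glands, so that likeness among tumors did not go with a gap from the glands in every gene. These r values share tumor 7. Without it, 4 of the 10 stayed among the 10 most alike.

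Markers of other skin and tissue compartments moved with these genes to different degrees. Among all listed genes 10.5% were called higher and 10.1% lower. Of 9 outer root sheath markers 7 were called higher, with sums of 1210 to 6931 normalized cpm in the tumors, highest in tumor 7 and lowest in tumor 1, and 247 to 544 in the glands. Some of these markers, such as Krt5, Krt14 and Krt17, are also expressed by basal cells of the mammary epithelium, and the 2 sources cannot be told apart. Of 4 listed epidermis markers 3 were called higher, with sums of 49.6 to 359 in the tumors, again highest in tumor 7, and 6.34 to 20.2 in the glands. Of 5 listed sebaceous gland markers 1 was higher and 2 lower, with sums of 9.33 to 26.1 in the tumors and 18.2 to 56.3 in the glands. Of 5 dermal papilla markers 1 was higher and 1 lower by limma and none lower by edgeR, with sums of 11.3 to 130 in the tumors, lowest in tumor 1 and highest in tumor 9, and 14.1 to 19.9 in the glands. The sums were carried by Sostdc1, an inhibitor of Wnt and BMP signaling, which was at 6.54 in tumor 1, 119 in tumor 7 and 116 in tumor 9, and at 5.48 to 9.19 in the glands (adjusted p = 0.010, and 0.058 without gland 1). The 2 listed melanocyte genes were not called by limma, while edgeR called 1 of them lower, and they summed to 0.941 to 4.30 in the tumors and 1.76 to 4.63 in the glands. Skeletal muscle genes summed to 1900 in tumor 4 and 323 in tumor 10, and to 2.12 to 11.6 in the other tumors, and none of 5 was called. Of 12 mammary epithelium markers 3 were higher, with sums of 2142 to 3214 in the tumors and 1318 to 2937 in the glands. The part of skin or of muscle in the samples in the levels of the 10 genes was not tested.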

How the data were processed

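Paired-end RNA-seq reads of 75 bases had been aligned to mm10 and counted per gene with Rsubread featureCounts. The deposited signal values are read counts that the authors divided by effective library sizes with edgeR (normalized cpm). No sample was pooled. The labels name 2 sequencing sites without saying which library came from which, so that no batch could be assigned. Every deposited value came out as a whole number of reads within 0.02 reads after division by the value of 1 read in its library, and the recovered counts gave the depths.

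The main test was limma 3.58.1 with a mean-variance trend (R 4.3.3) on log2(normalized cpm + 1), over all 13 libraries and 15213 listed genes, with Benjamini-Hochberg adjustment. A gene was called at an adjusted p under 0.05 and a difference of more than 2-fold. Unlike the methods, the filter on low values (5 cpm or less in most samples) was not applied, because it drops genes that are high in few tumors. A fold change on this scale understates the change of low genes. The test treats the 10 tumors of 6 mice as separate samples. On the recovered counts, edgeR 4.0.16 and DESeq2 1.42.0 were alternatives, as were other pseudocounts, the filter, scaling to plain cpm or to mammary epithelium markers, mouse as a block, reads summed per mouse and leaving out each library.

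The genes and lists were chosen with earlier results of these data known. In each list, any gene could be named, and values could be given for at most 2 called genes in each direction, those with the largest differences, for genes whose groups do not overlap, for the 3 highest keratin-associated proteins and for genome neighbors. Padi2, Gata3, Tgm1, Mpo and Retnlg were given values after their values were seen. Exon lengths came from GENCODE M21 and promoters from RefSeq (GRCm38.p6), where 15106 listed genes were matched by Entrez ID.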

Additional observations from a re-analysis of the deposited data

Results flagged for a closer look

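Over the 10 tumors, 14 sets of values, in normalized cpm without a log, were examined with Dixon's ratio. This is the gap between the most extreme tumor and the next one divided by the whole range. The ratio exceeded the 95% critical value for 10 samples in 12 sets. Chance flags about 1 in 20 groups of normally distributed values. This rate does not apply to skewed values or to genes chosen for their spread among the tumors, so that the ratios are a description and no test. The sets also share the same tumors. In 11 of the 12, tumor 7 stood apart at the upper end. Its ratio was 0.547 for Krt25, 0.807 for Krt27, 0.835 for Krt28, 0.552 for Krt71, 0.863 for Krt72, 0.845 for Krt73, 0.792 for Padi3 and 0.566 for Padi4. For the summed levels it was 0.797 for the inner root sheath keratins, 0.852 for the hair shaft keratins and 0.782 for the keratin-associated proteins. Tchh and Padi1 were below the critical value, Tchh because tumor 9 was also high. The twelfth set was the summed skeletal muscle genes, in which tumor 4 stood apart with a ratio of 0.831.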

How the results depend on the processing

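All 10 genes were higher in the tumors under each alternative that kept them, and 9 of them were called, except that 10 were with a pseudocount of 0.1, edgeR or DESeq2 and 6 with a replicate block. Their median log2 difference of 4.32 was 5.83 with a pseudocount of 0.1, 6.43 with edgeR and 6.58 with DESeq2, and lay between 4.05 and 4.50 when single libraries were left out. Of the 77 related genes, the 27 called higher became 58 with a pseudocount of 0.1, 65 with edgeR, 67 with DESeq2 and 13 with a replicate block, and 18 to 33 without single libraries, with 18 without gland 1 or gland 3. The 2 called lower became 1 with the filter of the methods, with reads summed per mouse, without the mouse of 3 tumors, with the replicate block and without gland 1, with a range of 1 to 2 when libraries were left out. Of all listed genes, 1603 were higher and 1538 lower. Scaling to mammary epithelium markers gave 1042 and 2745 and shifted the median of all genes to -0.39, plain cpm shifted it to 0.31, the replicate block gave 547 and 564, and the filter left 825 lower. Single libraries left out gave 1279 to 1895 higher and 1244 to 1749 lower. The replicate numbers of tumors and glands mark different mice, and the deviations of same-numbered libraries correlated at -0.41, 0.04 and -0.59, so that the numbers did not pair the samples. Of the 29 related calls, 8 were lost with reads summed per mouse, 15 with the replicate block, and 10, 7 and 10 without gland 1, 2 and 3, and 18 stood with reads summed per mouse and without any single library. The causes were not tested. Krt72 was near the floor of 3 reads in tumors 1, 4 and 8, of which tumors 1 and 4 were the deepest tumor libraries.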
